A study of Mus musculus with 10 samples.

Results

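The ephrin, semaphorin, Slit and netrin-receptor guidance genes were compared between CBE-KO and WT mouse embryonic stem cells. Members were taken by gene symbol: Eph receptors, ephrins, semaphorins of classes 3 to 7, plexins, neuropilins, Slits, Robos and Unc5 receptors. This gave 64 genes of the 52636 identifiers in the count tables. They comprised 31 ligands and 33 receptors. The cells were of the E14 line, a blastocyst-derived stem cell line in wide use. Both groups were moved out of medium with LIF and the inhibitors PD0325901 and CHIR99021 and received retinoic acid at a labelled 2 µM, with RNA taken at 24 h. WT cells carried no labelled edit, and CBE-KO cells lacked a CTCF binding element whose role in contacts of nearby enhancers with the HoxA cluster was the study's subject. Each group had 2 RNA-seq libraries. The labels do not say whether CBE-KO was 1 clone or several, so p-values measure the spread between these libraries only.

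Guidance proteins steer growing axons, migrating cells and vessels by attraction or repulsion. Ephrins stay on the cell surface, the A class by a lipid anchor and the B class by a membrane-spanning segment, and signal with Eph receptor tyrosine kinases in both directions across a cell contact. Semaphorins act through plexins, and most of the secreted class 3 also need a neuropilin as coreceptor. Slits act through Robos, and netrins through Dcc, neogenin and the Unc5 receptors. In early embryos several of these families also take part in sorting cells and forming tissue borders, and retinoic acid is known to drive embryonic stem cells toward neural and endodermal fates.

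Library totals ranged from 14108038 to 15632960 counts, which put 3 counts at 0.185 to 0.218 CPM (library-scaled counts, with TMM factors). Protein-coding genes of the Y chromosome together held 13 to 20 counts in WT and 2230 to 2659 in CBE-KO, so the groups differed in more than the labelled edit. The part of that difference in the results below was not tested. Pluripotency markers were present in all libraries, with a summed level of 3330 to 3450 CPM over 6 genes in WT and 2980 to 3000 CPM in CBE-KO. The 6 markers did not move together. Pou5f1, Sox2, Zfp42 and Klf4 were lower (log2 of CBE-KO over WT of -0.33, -0.35, -0.42 and -0.49, edgeR adjusted p under 0.05). Nanog was higher (0.15, edgeR adjusted p = 0.0107), and Esrrb did not pass (-0.04, edgeR adjusted p = 0.504). The mean of Pou5f1 fell from 1030 to 816 CPM, while that of Nanog rose from 808 to 896 CPM. In such bulk RNA, fewer cells expressing a gene and less RNA per cell cannot be told apart.

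Of the 64 guidance genes, 53 passed edgeR's filter on low counts, and 26 of these changed (quasi-likelihood test, Benjamini-Hochberg adjusted p under 0.05 over all genes tested). The share was 49.1%, beside 43.1% of all 16005 tested genes. CBE-KO had more RNA of 21 (39.6% of those tested, against 21.6% of all tested genes) and less of 5 (9.43%, against 21.5%). Differences between groups are given below as log2 of CBE-KO over WT. Their median was 0.18 over the tested members and 0.01 over all tested genes. Changes of 1 log2 unit or more were seen for 8 members, all of them higher, where 8.64% of all tested genes were called at that size, 6.09% higher and 2.55% lower. Only Efnb1, Plxna2 and Robo1 of these 8 reached the filter's minimum in both groups, and the other 5 had to be high in CBE-KO to be tested at all. CPM of the groups did not overlap for 36 of 53 members, beside 70.4% of all tested genes. The test was entered through CBE-KO alone by 7 members and 5 of them changed (Nrp1, Sema3c, Sema5a, Slit2 and Unc5d), and 1, Slit1, entered through WT alone. Among the 45 members at the filter's minimum in both groups, 16 were higher and 5 lower, a count added after the data were seen. The shares among all genes meeting that condition were not computed, so this count has no matched background. With DESeq2, 17 members passed, 15 higher and 2 lower, and all 17 were among the 26. Of the members called by DESeq2, 88.2% were higher, beside 44.7% of all genes called. Scaling by library totals gave 23 higher and 3 lower, with the median of all genes shifted to 0.11. Under that scaling 88.5% of called members were higher, beside 67.0% of all genes called, so part of the lean was shared by all genes.

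**Figure D1:**
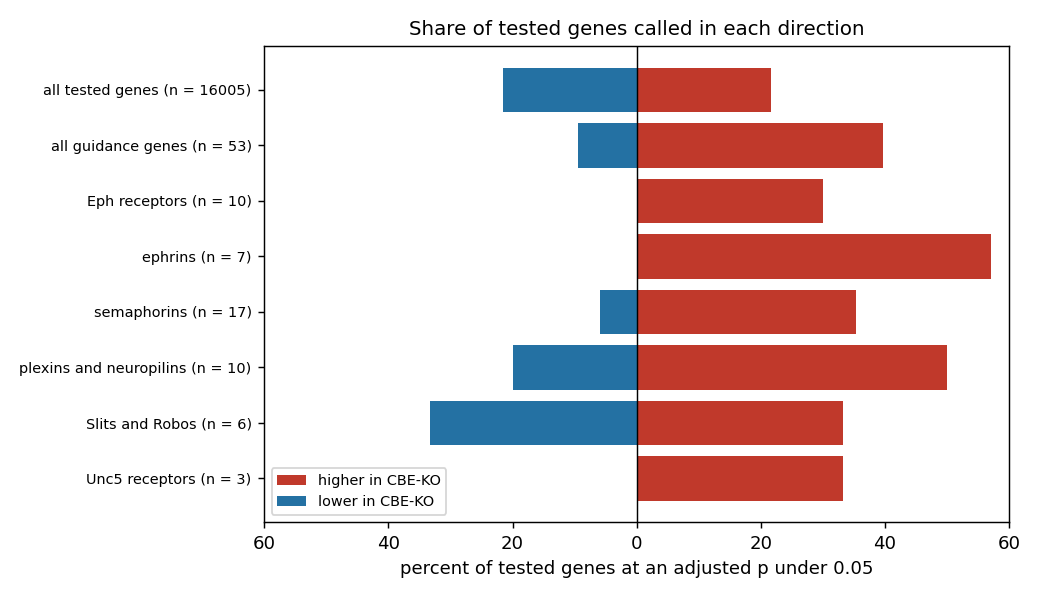
Percent of tested genes called higher (right) or lower (left) in CBE-KO at an edgeR adjusted p under 0.05, for all tested genes, all guidance genes and each family, with the number tested in parentheses. All tested genes split evenly at 21.6% and 21.5%, and the guidance genes stand at 39.6% higher and 9.43% lower.

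**Figure D2:**
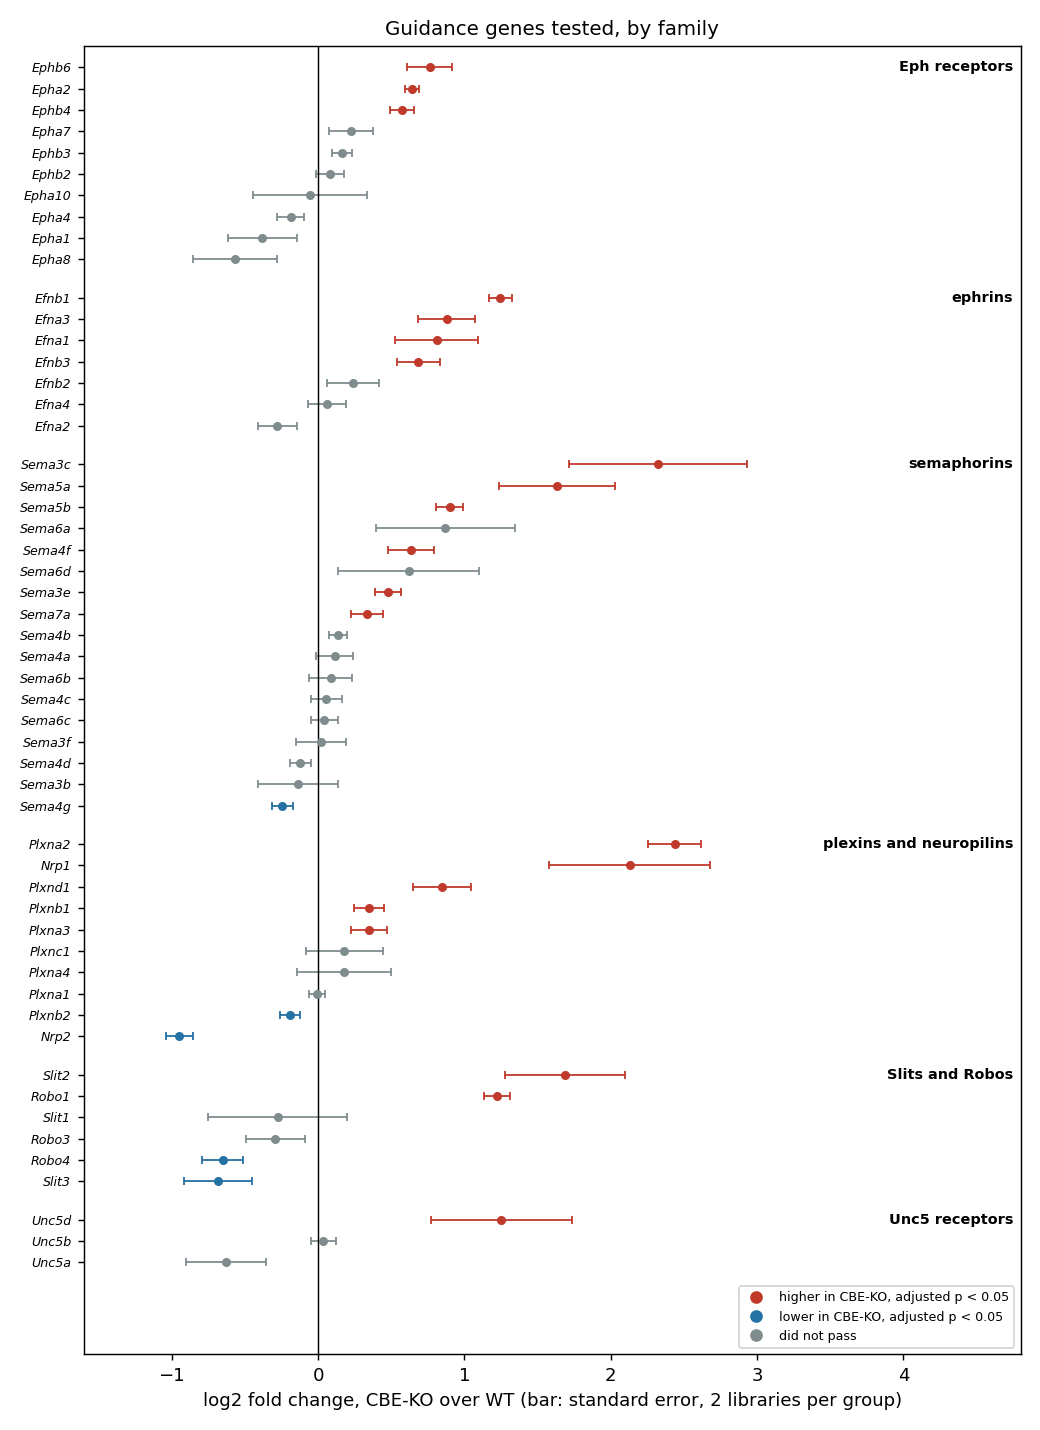
Log2 fold change of CBE-KO over WT for the 53 tested guidance genes by family, as points with the standard error as bars, with colour giving direction and test result. Values run from -0.95 for Nrp2 to 2.44 for Plxna2, and 8 members lie at 1 or above with a passing test.

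The promoter sequences of a few members are shown first, since they are the regions where members that moved together or apart could be set side by side. RefSeq (GRCm38.p6, the assembly behind mm10, which the submitters' processing notes name) placed 72 annotated starts for 56 of the 64 members. Gene coordinates here are from the same assembly. The 250 bases before each start were searched on both strands for 9 motifs. Printed here are those of Plxna2, which had the highest fold change, of the neuropilins, which moved in opposite directions, and of Robo1 and Robo4, which also did. All are on the plus strand, 5′ to 3′. Capitals mark matches to the retinoic acid receptor half-site AGGTCA (or TGACCT on the other strand) and to a short CTCF core (CC, any 3 bases, AG, any 2 bases, GGC) on either strand.
Plxna2, chr1:194619579-194619828: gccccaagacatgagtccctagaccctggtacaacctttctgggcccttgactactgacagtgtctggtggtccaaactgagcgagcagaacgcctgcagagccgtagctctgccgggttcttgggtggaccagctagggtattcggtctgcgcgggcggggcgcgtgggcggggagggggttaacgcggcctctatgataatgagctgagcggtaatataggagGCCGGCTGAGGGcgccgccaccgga
Nrp1, chr8:128358823-128359072: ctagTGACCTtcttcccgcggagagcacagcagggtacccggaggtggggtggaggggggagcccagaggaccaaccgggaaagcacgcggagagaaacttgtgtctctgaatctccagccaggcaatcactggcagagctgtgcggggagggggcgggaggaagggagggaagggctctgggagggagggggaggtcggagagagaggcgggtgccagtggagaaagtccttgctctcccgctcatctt
Nrp2, chr1:62703067-62703316: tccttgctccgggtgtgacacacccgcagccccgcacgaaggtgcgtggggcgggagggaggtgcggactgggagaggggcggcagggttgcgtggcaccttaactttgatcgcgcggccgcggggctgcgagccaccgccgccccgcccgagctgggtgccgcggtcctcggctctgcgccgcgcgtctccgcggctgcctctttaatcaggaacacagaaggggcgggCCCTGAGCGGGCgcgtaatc
Robo1, chr16:72662899-72663148: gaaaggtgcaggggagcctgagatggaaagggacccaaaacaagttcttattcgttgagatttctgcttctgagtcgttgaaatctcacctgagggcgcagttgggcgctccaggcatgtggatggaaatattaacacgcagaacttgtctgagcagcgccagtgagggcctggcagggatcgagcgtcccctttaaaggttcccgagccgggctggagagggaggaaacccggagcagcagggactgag
Robo4, chr9:37401722-37401971: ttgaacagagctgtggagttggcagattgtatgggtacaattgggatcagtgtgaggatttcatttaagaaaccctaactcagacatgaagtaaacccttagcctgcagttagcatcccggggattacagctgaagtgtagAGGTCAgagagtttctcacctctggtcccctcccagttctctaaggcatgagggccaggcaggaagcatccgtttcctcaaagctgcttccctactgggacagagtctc

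The 5 windows differed in base composition. That of Nrp2 held 72.4% G or C and 32 CpG, and that of Robo4 held 49.6% and 2 CpG. The windows of Plxna2, Nrp1, Robo1 and Robo4 precede starts inside the span that RefSeq gives the gene, and that of Nrp2 ends just before its span. For Robo1 the window begins at 72662899 and the gene's span at 72027518, so it precedes an internal start. Which starts these cells used was not tested. Among the 72 member promoters, the median G or C content was 64.4%, against 52.4% over all 32851 promoters of the table. The GC box GGGCGG occurred in 51 of them (70.8%), beside 32.7% of all promoters. It was present in 17 of 21 promoters of members that were higher, 5 of 6 of members that were lower, 25 of 32 of members that did not pass and 4 of 13 of untested members. The half-site AGGTCA occurred in 9 (12.5%, beside 14% of all), in members that rose (Epha2, Nrp1, Plxnd1, Sema5a), fell (Plxnb2, Robo4) and did not pass (Sema4b, Sema4d, Sema6b). The half-site AGTTCA occurred in 3 (4.17%, beside 11.8%) and the homeobox core TAATTA in 3 (4.17%, beside 4.84%). The CTCF core occurred in 5 (6.94%, beside 7.17%), those of Epha1, Nrp2, Plxna2, Plxna3 and Plxnd1. Repeats of either half-site in the same orientation with 1, 2 or 5 bases between were in 0 member promoters and in 0.067%, 0.0365% and 0.0335% of all. The Pbx-Hox core TGATTNAT was in 0, beside 2.82% of all. A repeat counts again under its half-site.

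Among Eph receptors, 10 of 14 were tested, 3 were higher and 0 lower in edgeR (30.0% called, beside 43.1% of all tested genes). At an unadjusted p under 0.05 and in DESeq2, 0 were lower as well. All 3 that rose did so by less than a log2 unit. Epha2 (ENSMUSG00000006445, chr4:141301221-141329384), a receptor that prefers ephrin-A ligands, had counts of 2842 and 2705 in the WT libraries against 4972 and 4413 in the CBE-KO libraries. Both CBE-KO libraries lay well above both WT libraries. The means were 196 ± 1.52 CPM and 305 ± 2.17 CPM (SD, n = 2 each), a difference of 0.64 ± 0.05 on the log2 scale (SE; edgeR adjusted p = 9.01e-09).

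Ephb4 (ENSMUSG00000029710, chr5:137350109-137374522), the receptor of ephrin-B2 best known from veins, had counts of 526 and 598 in the WT libraries against 943 and 871 in the CBE-KO libraries. The groups did not overlap. Its mean rose from 39.7 ± 5.29 to 59.0 ± 1.24 CPM (SD, n = 2 each), a difference of 0.57 ± 0.08 on the log2 scale (SE; edgeR adjusted p = 2.64e-05). Ephb6 (ENSMUSG00000029869, chr6:41603834-41620509), a family member without kinase activity, had counts of 106 and 104 in the WT libraries against 188 and 198 in the CBE-KO libraries. Its replicates were close in both groups. This came to 0.76 ± 0.16 on the log2 scale (SE; edgeR adjusted p = 0.000673).

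The other tested Eph receptors did not pass. Epha7, Ephb3 and Ephb2 had log2 fold changes of 0.22, 0.16 and 0.08, and Epha10, Epha4, Epha1 and Epha8 of -0.06, -0.19, -0.38 and -0.57. Ephb3, with 652 and 650 counts against 824 and 759, passed with library totals (adjusted p = 0.00477), with upper-quartile scaling (adjusted p = 0.0319) and in edgeR without WT replicate 2 (adjusted p = 0.0449). Epha4 and Epha8 passed in edgeR as lower without CBE-KO replicate 1 (adjusted p = 0.0265 and 0.0216), which took the family's count to 5. Epha3, Epha5, Epha6 and Ephb1 were not tested. Of these, Epha3, Epha5 and Epha6 had 0 counts in both WT libraries and at most 7 in a CBE-KO library, and Ephb1 had 0 to 11. Levels this low allow no statement on change.

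Among ephrins, 7 of 8 were tested, 4 were higher and 0 lower in edgeR (57.1% called, beside 43.1% of all tested genes). At an unadjusted p under 0.05 or in DESeq2, 0 were lower. Efnb1 (ENSMUSG00000031217, chrX:99136061-99149022), a transmembrane ligand of EphB receptors encoded on the X chromosome, had counts of 307 and 272 in the WT libraries against 779 and 711 in the CBE-KO libraries. The lowest CBE-KO library was far above the highest WT library. Its mean went from 20.4 ± 0.874 to 48.4 ± 0.612 CPM (SD, n = 2 each), 2.37-fold, or 1.25 ± 0.08 on the log2 scale (SE; edgeR adjusted p = 2.36e-09). Efnb3 (ENSMUSG00000003934, chr11:69554092-69561150), a ligand known from the spinal cord midline, had counts of 115 and 114 in the WT libraries against 218 and 182 in the CBE-KO libraries. It too was higher in both CBE-KO libraries. CBE-KO minus WT was 0.68 ± 0.15 on the log2 scale (SE; edgeR adjusted p = 0.00108). Efnb2, the third B-class ligand, had 116 and 101 counts against 125 and 152 and did not pass (0.24 ± 0.18, SE; edgeR adjusted p = 0.296).

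The A-class ligands Efna1, Efna3 and Efna4 lie side by side on chromosome 3, with 32.9 kb between Efna1 and Efna3 and 10.5 kb between Efna3 and Efna4. Efna3 (ENSMUSG00000028039, chr3:89313899-89322939) had counts of 71 and 55 in the WT libraries against 123 and 128 in the CBE-KO libraries, or 0.88 ± 0.19 on the log2 scale (SE; edgeR adjusted p = 0.00138). Efna1 (ENSMUSG00000027954, chr3:89271730-89280951), the ligand best known for Epha2, had counts of 41 and 22 in the WT libraries against 66 and 54 in the CBE-KO libraries. Its WT libraries were widely spaced, and both lay below CBE-KO. On the log2 scale this was 0.81 ± 0.28 (SE; edgeR adjusted p = 0.0283), and the call was lost in DESeq2 (adjusted p = 0.152) and in edgeR without WT replicate 2, CBE-KO replicate 1 or CBE-KO replicate 2 (adjusted p = 0.236, 0.126 and 0.0518). The value was 1.28 without WT replicate 1 and 0.47 without WT replicate 2. Efna4, between 184 and 216 counts in every library, did not pass (0.06 ± 0.13, SE; edgeR adjusted p = 0.740). Whether counting used strand is not given in the sources used here, so reads of close or overlapping genes could be assigned wrongly. Of the remaining A-class ligands, Efna2 did not pass (-0.28 ± 0.14, SE; edgeR adjusted p = 0.110), and Efna5, with 5 to 15 counts, was not tested.

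**Figure D3:**
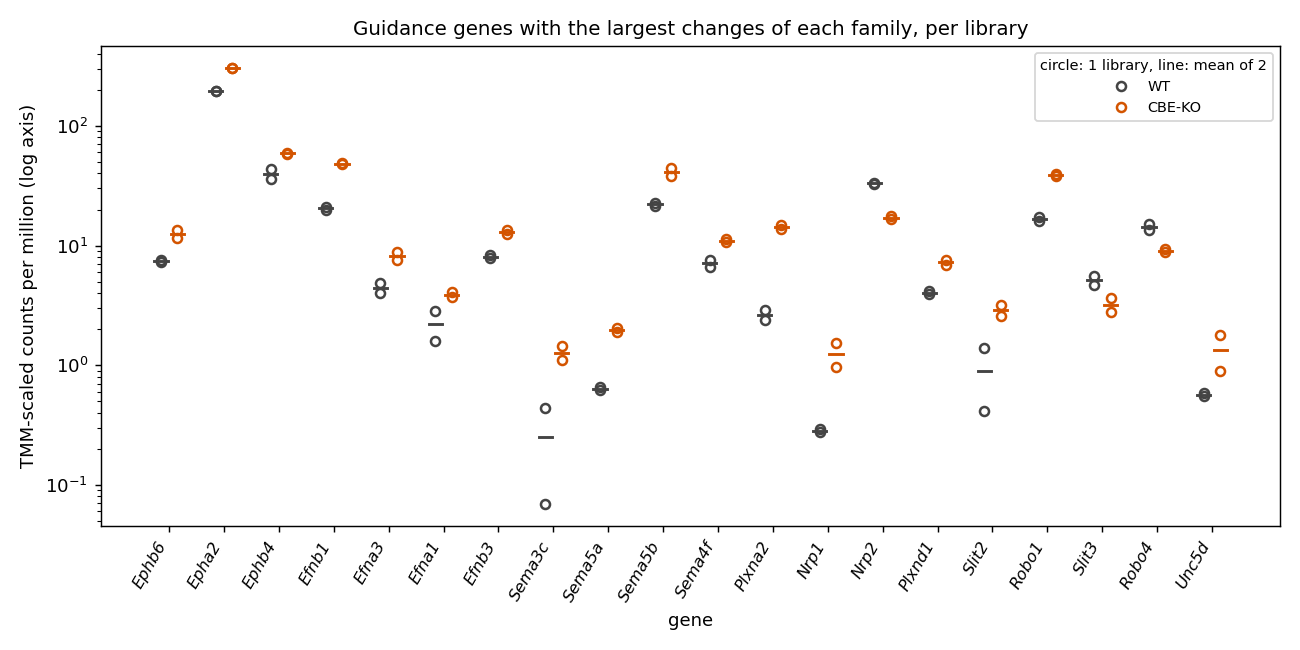
TMM-scaled CPM on a log axis for the 20 members with the largest passing changes of each family, with a circle for each library and a line for the mean of 2. WT and CBE-KO circles do not overlap for any of the 20. Choosing passing changes favours such gaps, and 70.4% of all tested genes did not overlap either. The circles of Sema3c, Slit2 and Efna1 are widely spaced in WT.

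Among semaphorins, 17 of 20 were tested, 6 were higher and 1 was lower (41.2% called, beside 43.1% of all tested genes). Class 5, transmembrane proteins with thrombospondin repeats, rose in both of its members. Sema5b (ENSMUSG00000052133, chr16:35541154-35664261) had counts of 331 and 295 in the WT libraries against 620 and 643 in the CBE-KO libraries. All libraries were well above the floor and the groups stood apart. The change measured 0.90 ± 0.09 on the log2 scale (SE; edgeR adjusted p = 5.14e-07). Sema5a (ENSMUSG00000022231, chr15:32244813-32696341) had counts of 9 and 9 in the WT libraries against 31 and 30 in the CBE-KO libraries, at 0.635 ± 0.0271 and 1.99 ± 0.107 CPM (SD, n = 2 each). It was low in both groups, and its replicates hardly differed. In log2 units the difference was 1.63 ± 0.40 (SE; edgeR adjusted p = 0.00297).

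Class 3 semaphorins are secreted, and 2 of the 4 tested were higher. Sema3e (ENSMUSG00000063531, chr5:14025276-14256689), which binds plexin D1 without a neuropilin, had counts of 349 and 369 in the WT libraries against 564 and 523 in the CBE-KO libraries. The groups did not overlap, and the difference in log2 units was 0.48 ± 0.09 (SE; edgeR adjusted p = 0.000253). Sema3c (ENSMUSG00000028780, chr5:17574816-17730268), known from the outflow tract of the heart, had counts of 1 and 6 in the WT libraries against 18 and 21 in the CBE-KO libraries. Its WT libraries differed from each other at counts near the floor. The log2 value of 2.32 ± 0.61 (SE; edgeR adjusted p = 0.00502) rested on these few counts. Without WT replicate 1 it was 1.52 and did not pass (edgeR adjusted p = 0.0526), and without WT replicate 2 it was 4.05. Sema3b and Sema3f, neighbours on chromosome 9 with 72.3 kb between them, had log2 fold changes of -0.13 and 0.02 and did not pass. Sema3a, Sema3d and Sema3g, with 0 to 12 counts, were not tested. Of these, Sema3a and Sema3d lie on chromosome 5 beside Sema3e, with 422 kb between Sema3a and Sema3e and 536 kb between Sema3d and Sema3a.

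Of the membrane-bound classes 4, 6 and 7, in which every gene was tested, Sema4f and Sema7a were higher and Sema4g was lower. Sema4f (ENSMUSG00000000627, chr6:82911884-82939769) had counts of 110 and 91 in the WT libraries against 173 and 165 in the CBE-KO libraries, and its groups did not overlap. This came to 0.63 ± 0.16 on the log2 scale (SE; edgeR adjusted p = 0.00356). Sema7a, a lipid-anchored ligand of plexin C1 and integrins, had 274 and 227 counts against 350 and 334 (0.33 ± 0.11, SE; edgeR adjusted p = 0.0194). That call was lost in DESeq2 (adjusted p = 0.135) and in edgeR without WT replicate 2 or CBE-KO replicate 2 (adjusted p = 0.174 and 0.0871). Sema4g went from 688 and 674 counts to 672 and 576 (-0.25 ± 0.07, SE; edgeR adjusted p = 0.0113), with both CBE-KO libraries below both WT libraries. It did not pass in DESeq2 (adjusted p = 0.0718), with library totals (adjusted p = 0.137) or in edgeR without CBE-KO replicate 2 (adjusted p = 0.0929). Sema4a, Sema4b, Sema4c and Sema4d had log2 fold changes of 0.11, 0.14, 0.06 and -0.12. Of these, Sema4b passed as higher with library totals (adjusted p = 0.00379) and upper-quartile scaling (adjusted p = 0.0348), and Sema4d as lower in edgeR without WT replicate 1 (adjusted p = 0.0414). In class 6, Sema6b and Sema6c had log2 fold changes of 0.09 and 0.04. Sema6a and Sema6d, at 8 to 21 counts, had log2 fold changes of 0.87 ± 0.47 and 0.62 ± 0.48 (SE) and did not pass.

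Plexins and neuropilins, the semaphorin receptors, held the highest and the lowest log2 fold changes of all tested members. Of 10 tested, 5 were higher and 2 lower (70.0% called, beside 43.1% of all tested genes). Plxna2 (ENSMUSG00000026640, chr1:194619791-194816869), a receptor of class 6 and, with neuropilins, class 3 semaphorins, had counts of 42 and 33 in the WT libraries against 242 and 200 in the CBE-KO libraries. Every CBE-KO library was several times above every WT library. The mean went from 2.64 ± 0.336 to 14.3 ± 0.824 CPM (SD, n = 2 each), 5.41-fold, or 2.44 ± 0.18 on the log2 scale (SE; edgeR adjusted p = 1.20e-08). The other A plexins moved less. Plxna1 had 1620 and 1655 counts against 1909 and 1637 (-0.01 ± 0.06, SE; edgeR adjusted p = 0.944), and the sign turned with library totals and with upper-quartile scaling. Plxna4, at 24 to 32 counts, did not pass (0.18 ± 0.32, SE; edgeR adjusted p = 0.699). Plxna3, the partner of neuropilin 2 for Sema3f, was higher by 0.35 ± 0.12 (SE; edgeR adjusted p = 0.0291), and this call was lost in DESeq2 (adjusted p = 0.160) and in edgeR without WT replicate 1 or CBE-KO replicate 2 (adjusted p = 0.233 and 0.148).

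The neuropilins moved in opposite directions. Nrp2 (ENSMUSG00000025969, chr1:62703317-62818692), the coreceptor of Sema3f, had counts of 483 and 452 in the WT libraries against 270 and 255 in the CBE-KO libraries. Its replicates were close, and every WT library was above every CBE-KO library. The mean went from 33.0 ± 0.138 to 17.1 ± 0.628 CPM (SD, n = 2 each). This is a change of -0.95 ± 0.09 on the log2 scale (SE; edgeR adjusted p = 3.10e-07), and with library totals it was -0.85. Nrp1 (ENSMUSG00000025810, chr8:128358591-128505476), the coreceptor of Sema3a and of VEGF, had counts of 4 and 4 in the WT libraries against 25 and 14 in the CBE-KO libraries. WT was near the floor and the CBE-KO libraries differed from each other. CBE-KO minus WT was 2.13 ± 0.55 on the log2 scale (SE; edgeR adjusted p = 0.00435), and the call was lost in DESeq2 (adjusted p = 0.0528) and in edgeR without CBE-KO replicate 1 (1.74, adjusted p = 0.0739).

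Plxnd1 (ENSMUSG00000030123, chr6:115954811-115995339), the receptor of Sema3e, had counts of 57 and 57 in the WT libraries against 111 and 111 in the CBE-KO libraries. The equal counts within groups left a clear gap between them. On the log2 scale this was 0.84 ± 0.20 (SE; edgeR adjusted p = 0.00230). Plxnb1, the receptor of Sema4d, had 319 and 362 counts against 527 and 418 (0.35 ± 0.10, SE; edgeR adjusted p = 0.0101). It did not pass in DESeq2 (adjusted p = 0.0780) or in edgeR without WT replicate 1 or CBE-KO replicate 1 (0.22 and 0.26, adjusted p = 0.148 and 0.0911), and the family's count was 4 in the latter. Plxnb2, a receptor of class 4 semaphorins, was lower by a small amount (-0.19 ± 0.07, SE; edgeR adjusted p = 0.0317). It did not pass in DESeq2 (adjusted p = 0.139), with upper-quartile scaling (adjusted p = 0.0780), with library totals (adjusted p = 0.343) or in edgeR without WT replicate 2, CBE-KO replicate 1 or CBE-KO replicate 2 (adjusted p = 0.0896, 0.0592 and 0.217). Plxnc1 did not pass (0.18 ± 0.26, SE; edgeR adjusted p = 0.620), and Plxnb3, with 2 to 10 counts, was not tested.

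Slits and Robos split by direction: of 6 tested, 2 were higher and 2 lower (66.7% called, beside 43.1% of all tested genes). Slit2 and Robo1, the ligand and receptor best known as a pair, were both higher. Robo1 (ENSMUSG00000022883, chr16:72027518-73047491) had counts of 253 and 220 in the WT libraries against 620 and 577 in the CBE-KO libraries, and its groups stood far apart. The mean went from 16.7 ± 0.934 to 38.9 ± 1.03 CPM (SD, n = 2 each), 2.33-fold, or 1.22 ± 0.09 on the log2 scale (SE; edgeR adjusted p = 1.04e-08). Slit2 (ENSMUSG00000031558, chr5:47981291-48307735) had counts of 6 and 19 in the WT libraries against 42 and 46 in the CBE-KO libraries. Its WT libraries differed widely from each other, and both lay below CBE-KO. The change measured 1.69 ± 0.41 on the log2 scale (SE; edgeR adjusted p = 0.00279). It was 1.05 without WT replicate 1 and 2.77 without WT replicate 2, and passed in both.

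Robo4 (ENSMUSG00000032125, chr9:37401902-37414023), a divergent Robo known from endothelium, had counts of 198 and 207 in the WT libraries against 152 and 128 in the CBE-KO libraries. Both CBE-KO libraries were lower. In log2 units the difference was -0.65 ± 0.14 (SE; edgeR adjusted p = 0.00114). Its neighbour Robo3, which controls midline crossing, is on the opposite strand, and 2.02 kb lie between the ends of the genes. Robo3 had 83 and 104 counts against 85 and 81 and did not pass (-0.29 ± 0.20, SE; edgeR adjusted p = 0.264). Slit3 (ENSMUSG00000056427, chr11:35121456-35708507) had counts of 82 and 64 in the WT libraries against 45 and 53 in the CBE-KO libraries. The log2 value of -0.69 ± 0.23 (SE; edgeR adjusted p = 0.0248) lost its call in DESeq2 (adjusted p = 0.134) and in edgeR without WT replicate 1 or CBE-KO replicate 1 (adjusted p = 0.134 and 0.221). Slit1, at 7 to 20 counts, did not pass, and Robo2, at 3 to 7 counts, was not tested.

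Unc5 receptors, which mediate repulsion by netrins, gave 1 call among 3 tested (33.3%, beside 43.1% of all tested genes). Unc5d (ENSMUSG00000063626, chr8:28646717-29219671) had counts of 8 and 8 in the WT libraries against 29 and 13 in the CBE-KO libraries, so that 1 CBE-KO library carried most of the difference. This came to 1.25 ± 0.48 on the log2 scale (SE; edgeR adjusted p = 0.0448), and without CBE-KO replicate 1 it was 0.66 (edgeR adjusted p = 0.499). The call was also lost in DESeq2 (adjusted p = 0.230) and in edgeR without WT replicate 1 or WT replicate 2 (adjusted p = 0.0992 and 0.0728). Unc5b, at 673 to 896 counts, did not pass (0.04 ± 0.09, SE; edgeR adjusted p = 0.777). Unc5a, at 43 and 51 counts against 37 and 29, did not pass either (-0.63 ± 0.27, SE; edgeR adjusted p = 0.0736). Unc5c had 0 to 2 counts and was not tested.

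Genes that act beside the members were counted from 4 lists, of which 1 gene, Ntn3, was not analysed here. Among netrins, repulsive guidance molecules and FLRT proteins with their other receptors, 12 of 14 were tested, 4 were higher and 2 lower (50.0% called, beside 43.1% of all tested genes), with a median log2 fold change of 0.29. Flrt2, a surface protein that binds Unc5d, had counts of 11 and 12 in the WT libraries against 80 and 40 in the CBE-KO libraries. Both CBE-KO libraries were above WT but differed from each other. In log2 units it was higher by 2.24 ± 0.37 (SE; edgeR adjusted p = 9.02e-05). Neo1, the receptor neogenin, and its ligand Rgma rose by 0.49 and 0.81. Ntng2, a membrane-anchored netrin relative, fell by 1.26 on the log2 scale (SE 0.24; edgeR adjusted p = 0.000402), and Ntn1, the best studied netrin, had 493 and 453 counts against 438 and 364 (-0.36 ± 0.09, SE; edgeR adjusted p = 0.00254). Ntn4, chosen after its values were seen as the fourth that was higher, had 2 and 3 counts against 12 and 13. In DESeq2 it missed the threshold (adjusted p = 0.124), as it did in edgeR without WT replicate 1 or CBE-KO replicate 2 (adjusted p = 0.0775 and 0.0726). Dcc, the attractive netrin receptor, had 0 to 9 counts and was not tested.

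Of 24 mediators of Eph and ephrin signalling, all tested, 12 were higher and 0 lower in edgeR (50.0% called, beside 43.1% of all tested genes), with 0 lower at an unadjusted p under 0.05, and in DESeq2 7 were higher and 0 lower. Without WT replicate 1, edgeR called 9 higher and 1 lower, Arhgef15 (-0.43, adjusted p = 0.0216). The median log2 fold change was 0.24. Vav3, a signalling protein of the Vav family, had counts of 7 and 4 in the WT libraries against 33 and 30 in the CBE-KO libraries (2.38 ± 0.45, SE; edgeR adjusted p = 0.000330). Nck2, an adaptor of B ephrins, had 179 and 187 counts against 432 and 387. This was a clear separation, of 1.04 ± 0.11 on the log2 scale (SE; edgeR adjusted p = 6.39e-07). Ptpn13, a phosphatase that binds ephrin-B tails, was higher by 0.63 and the scaffold Grip1 by 0.55. Grip1 lost its call in DESeq2 (adjusted p = 0.202) and in edgeR without WT replicate 1, CBE-KO replicate 1 or CBE-KO replicate 2 (adjusted p = 0.205, 0.176 and 0.0845).

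Of 22 tested mediators of semaphorin signalling (25 listed), 9 were higher and 3 lower (54.5% called, beside 43.1% of all tested genes), with a median of 0.28. The collapsin response mediator proteins, cytoplasmic effectors of Sema3a, did not move as 1 group. Dpysl3 had counts of 134 and 124 in the WT libraries against 528 and 528 in the CBE-KO libraries (1.92 ± 0.11, SE; edgeR adjusted p = 4.23e-10). Dpysl5 and Dpysl2 rose by 1.09 and 0.98, while Crmp1 was lower, from 228 and 196 counts to 152 and 155 (-0.58 ± 0.14, SE; edgeR adjusted p = 0.00255). Rhod, a small GTPase, and Vegfa, the growth factor that also binds neuropilins, were the other lower genes (-0.78 and -0.13), and Rhod did not pass in edgeR without WT replicate 1 (-0.52, adjusted p = 0.0631). Vegfa did not pass in DESeq2 (adjusted p = 0.129), with library totals (adjusted p = 0.773) or with the replicate block (edgeR adjusted p = 0.0763). Met, a kinase that associates with B plexins, had counts of 9 and 8 in the WT libraries against 25 and 40 in the CBE-KO libraries (1.81 ± 0.43, SE; edgeR adjusted p = 0.00258), a call lost in edgeR without CBE-KO replicate 2 (adjusted p = 0.0655). All 17 mediators of Slit and Robo signalling were tested, 6 were higher and 4 lower (58.8% called, beside 43.1% of all tested genes), with a median of 0.07. Lower calls numbered 2 in DESeq2, with upper-quartile scaling and in edgeR without WT replicate 2, CBE-KO replicate 1 or CBE-KO replicate 2, and 1 with library totals. Evl, an actin regulator of the Ena/VASP family, had counts of 211 and 228 in the WT libraries against 567 and 523 in the CBE-KO libraries (1.19 ± 0.10, SE; edgeR adjusted p = 3.41e-08). Its relatives Enah and Vasp were lower (-0.27 and -0.13), as were Arhgap39 and the GTPase Rac1 (-0.21 and -0.21). With library totals, Vasp, Arhgap39 and Rac1 did not pass (adjusted p = 0.675, 0.283 and 0.106), in DESeq2 Vasp and Arhgap39 did not (adjusted p = 0.0773 and 0.152), and with the replicate block Vasp did not (edgeR adjusted p = 0.0536). Srgap3 and Srgap1, GTPase-activating proteins that bind Robo tails, rose by 1.02 and 0.89, Sos1 by 0.42.

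**Figure D4:**
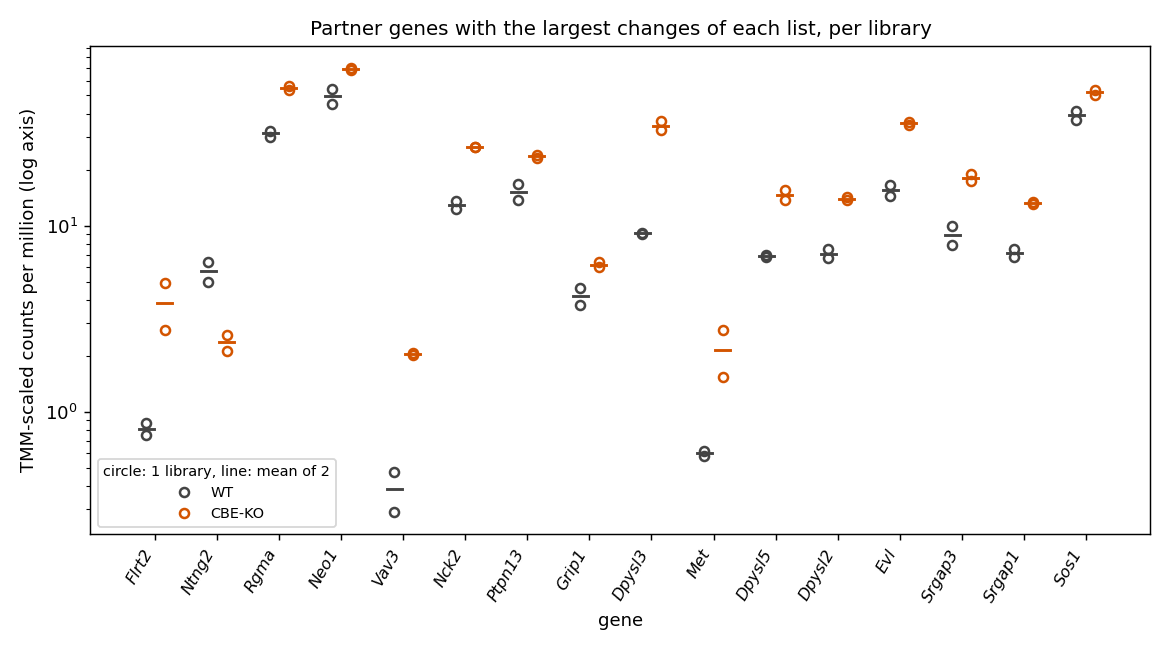
TMM-scaled CPM on a log axis for the 16 partner genes with the largest passing changes of their lists, with a circle for each library and a line for the mean of 2. Ntng2 is the gene with both CBE-KO circles under WT, and the CBE-KO circles of Flrt2 and Met are widely spaced.

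Ligands and receptors known to bind each other could be read side by side. Both sides were higher in CBE-KO for Sema3e with Plxnd1 (0.48 and 0.84), Slit2 with Robo1 (1.69 and 1.22), Efna1 with Epha2 (0.81 and 0.64) and Flrt2 with Unc5d (2.24 and 1.25). Of these genes, Slit2 and Unc5d entered the test through CBE-KO alone, so they had to be high there to be tested. For Sema3f with Nrp2 (0.02 and -0.95) and for Efnb2 with Ephb4 (0.24 and 0.57), the ligand did not pass. The calls were opposite for Slit3 with Robo1 (-0.69 and 1.22) and for Ntn1 with Neo1 (-0.36 and 0.49). For Sema4d with Plxnb1 (-0.12 and 0.35) the ligand did not pass, and for Sema7a with Plxnc1 (0.33 and 0.18) the receptor did not. Among the calls in these pairs, those of Efna1, Unc5d, Slit3, Plxnb1 and Sema7a were lost in DESeq2. These pairs were chosen after their values were seen and are not all known pairs, so they give no count of pairs. Of the members, 6 lie on chromosome 6 with HoxA, at 9.78 to 63.7 Mb from the cluster, and 3 of them were higher (Ephb6, Sema4f and Plxnd1) and 0 lower, where 21.6% and 21.5% of all tested genes were. The closest, Epha1, did not pass (-0.38 ± 0.24, SE; edgeR adjusted p = 0.207).

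Some markers of cell types in which guidance genes are prominent also moved, and their part in the results was not tested. Over all tested genes, 43.1% were called, 21.6% higher and 21.5% lower. Called shares of tested markers were 71.4% (neuron), 75.0% (neural progenitor), 83.3% (neural crest), 66.7% (endothelium), 66.7% (fibroblast), 50.0% (extraembryonic endoderm) and 28.6% (trophoblast). Each list had only 3 to 8 tested genes. Of the markers counted below, Map2, Syt1, Rbfox3, Tfap2a, Ets1, Snai2, Kdr, Esam, Dab2 and Krt8 did not pass in DESeq2. Of 8 neuron markers, 7 were tested, 2 were higher (Map2 and Syt1) and 3 lower (Tubb3, Stmn2 and Rbfox3). Their summed level was 402 to 437 CPM in WT and 311 to 316 CPM in CBE-KO. Stmn2 alone held 318 to 343 CPM of it in WT and 249 to 253 CPM in CBE-KO. Dcx had 0 to 3 counts. Of 7 neural progenitor markers, Sox1, Pax6 and Msi1 were higher and Nes did not pass, with sums of 53.5 to 55.0 and 79.2 to 82.5 CPM, while Zic1, Hes5 and Fabp7 had at most 7 counts. Of 7 neural crest markers, 4 were higher (Tfap2a, Ets1, Snai2 and Twist1) and Foxd3 was lower. Sox10 did not pass (-0.76, edgeR adjusted p = 0.155), and Tfap2b was at 0 in all libraries. The sums over the 7 were 53.2 to 54.8 and 41.5 to 47.6 CPM, of which Foxd3 alone held 41.0 to 43.1 and 19.8 to 27.1 CPM. Beside Ephb4, Plxnd1, Nrp1 and Robo4 stand 8 endothelial markers. Of these, 3 were higher (Tek, Kdr and Pecam1), Esam was lower, and Tie1 and Flt1 did not pass (-0.44 and 0.92). The sums over the 8 were 175 to 178 and 207 to 216 CPM, mostly of Pecam1, which stem cells also express. Cdh5 had 0 to 6 counts and Emcn 0. Of 8 fibroblast markers, Col1a1 and Pdgfrb were higher, with sums of 24.7 to 27.8 and 40.2 to 42.5 CPM, and Dcn, Lum and Postn were at 0. Extraembryonic endoderm markers summed to 119 to 122 and 146 to 150 CPM, with 4 of 8 higher, and trophoblast markers to 87.7 to 92.3 and 88.6 to 89.6 CPM, with 1 of 8 higher and 1 lower.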

How the data were processed

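RNA-seq counts of 2 WT and 2 CBE-KO libraries were used, and 6 Capture-C samples of the series were left out. The deposited values are raw counts per Ensembl gene, 1 table per library, with no normalization. The submitters' processing notes name HISAT2 2.1.0, HTSeq 0.9.1, DESeq2 1.18.1, Bowtie2 2.3.1 and mm10 without a role. Strand use, annotation release and handling of multiply mapped reads are not given in the sources used here. Symbols matched 52403 of 52636 identifiers. edgeR 4.0.16 (R 4.3.3) tested 16005 genes kept by filterByExpr, with TMM scaling, glmQLFit and glmQLFTest, two-sided, no covariate, and Benjamini-Hochberg adjustment over all tested genes at 0.05. The common biological coefficient of variation was 5.18%. The SE is the log2 fold change divided by the root of F. Floors of 3 counts cover counting error only.

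Full values are given for up to 4 members of each family, and up to 4 genes of each partner list, ranked by the size of a passing change, if the higher group averaged 1 CPM or more. Members and lists were chosen with earlier results of these data known. Titles number the replicates 1 and 2 in both groups, and deviations of same-numbered libraries had a correlation of 0.037. Replicates differed by more than sampling noise (chi-square per degree of freedom of 3.40 and 2.70). Alternatives were DESeq2 1.42.0, other scalings, filters and thresholds, a replicate block and leaving out each library. In simulated counts for 16005 genes with 200 changed by a log2 fold change of 1, edgeR recovered 176 and made 15 false calls, and DESeq2 recovered 154 and made 2. The 200 were drawn only from genes above a minimum mean count, equally in both directions, and all others were left unchanged. In the data 43.1% of tested genes were called, and the recovery does not describe members with few counts.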

Additional observations from a re-analysis of the deposited data

How the results depend on the processing

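The count of 26 changed guidance genes was 23 to 27 under the other scalings and filters and 21 to 23 when 1 library was left out, with 17 to 19 higher and 3 to 5 lower. With the replicate block it was 26 and the same 26 genes, and the labels do not say that a shared number pairs libraries. Among named genes, the block ended the calls of Vegfa and Vasp only. DESeq2 called 17 members, with 2 lower, 3 plexins and neuropilins, 0 Unc5 receptors, 7 Eph mediators and 4577 of all genes. Library totals left 3 lower. At an adjusted p under 0.01, 4 plexins and neuropilins, 0 Unc5 receptors and 2 lower members remained, and 0 Unc5 receptors with a mean of at least 1 CPM. At 1 log2 unit or more the counts were 1383 of all genes, 8 members (8 higher, 0 lower; 3 at the filter's minimum in both groups, a count added after the data were seen), 0 Eph receptors, 1 ephrin, 2 semaphorins, 2 plexins and neuropilins, 2 Slits and Robos, and 3, 2, 3 and 2 in the netrin, Eph, semaphorin and Slit partner lists. Left-out libraries gave 5385 to 6500 genes, 3 to 5 Eph receptors, 3 to 4 ephrins, 5 to 7 semaphorins, 4 to 6 plexins and neuropilins, 3 to 4 Slits and Robos and 0 to 1 Unc5 receptors. The partner lists then held 5 to 6, 8 to 12, 9 to 11 and 7 to 9. Leaving out a library leaves 1 in a group, which is assumed to vary like the others. The cause of these shifts was not tested.

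Signs turned only in genes that did not pass: Epha10 (0.047 with library totals) and Plxna1 (0.029 with upper-quartile scaling, 0.098 with library totals). With 1 library left out, log2 values crossed 0 for Epha10 (-0.436 to 0.435), Sema3b (-0.281 to 0.018), Sema3f (-0.063 to 0.108), Sema4a (-0.074 to 0.270), Sema6b (-0.037 to 0.220), Sema6c (-0.101 to 0.179), Plxna1 (-0.063 to 0.050), Plxna4 (-0.003 to 0.346), Plxnc1 (-0.021 to 0.346), Slit1 (-1.122 to 0.219) and Unc5b (-0.101 to 0.155). Sema3c and Nrp1 had at most 6 counts in a WT library, so their values rest on few counts.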
